A study of Mus musculus with 6 samples.

Results

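Integrins are cell surface receptors made of 1 alpha and 1 beta chain, and with selectins, their ligands and adhesion molecules of the immunoglobulin superfamily they hold leukocytes and blood stem cells to vessel walls, matrix and marrow stroma. The genes described here are 36 such adhesion genes: 16 integrin alpha chains, 9 beta chains and 11 other adhesion genes, chosen by name and taken by their symbol on the array. A probe set with 1 gene symbol was found for 35 of the 36, among 18194 genes so measured, and Itga11 was not analysed here. A gene with several probe sets is represented by the brightest, judged by mean log2 across the 6 arrays.

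The cells were lineage-negative, cKit-positive, Sca1-positive bone marrow cells of 6-week-old mice of the genotype Hes1 GFP/WT, that is, with 1 GFP reporter allele of Hes1, a repressor gene of the Notch pathway, beside 1 wild-type allele. GFP-positive and GFP-negative cells carried the same genotype and differed in reporter signal, with 3 arrays in each group. Replicate 1 of either group was female and replicates 2 and 3 were male. The labels name neither the strain background nor the antibodies of the lineage gate, and do not say whether animals were pooled or each array had an animal of its own, so the p-values speak only of the spread among these arrays, part of which may be technical. The comparison asks how adhesion genes of early blood progenitors differ with the Hes1 reporter.

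Beta1 integrins bind collagen, laminin, fibronectin and Vcam1, and alpha4 beta1 and alpha5 beta1 are best known for holding blood stem and progenitor cells in marrow. Beta2 integrins occur on leukocytes and bind Icam proteins, beta7 integrins direct lymphocytes to gut tissue, and alphav integrins bind vitronectin and latent TGF-beta. An alpha chain reaches the surface only with a beta chain, so the chains are also read as pairs below. In RNA from a sorted population, fewer cells that carry a transcript and less transcript per cell cannot be told apart.

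Facts of the arrays that bear on these genes are few. Any pair of arrays correlated at 0.925 to 0.951 across probe sets. In GFP-negative replicates 1, 2 and 3 Hes1 itself was at 6.78, 6.79 and 7.10 (log2 intensity), and in GFP-positive ones at 7.36, 7.09 and 7.84, so the groups overlapped at this gene. Of 6 genes listed as markers of the sorted cells 4 were measured, of which only Kit is named in the gate itself. The mean log2 level of the 4 was lower in every GFP-positive array (10.82 to 11.22 against 11.54 to 11.67). Ptprc, Cd34 and Flt3 were lower there without overlap, and Kit was lower with overlap, at 9.69 to 10.51 against 10.47 to 10.72. Markers of several other cell types stood higher in GFP-positive arrays: the mean log2 level of 9 measured megakaryocyte and platelet markers (of 11 listed) was 7.54 to 7.91 against 6.38 to 6.68, of 13 macrophage markers 7.06 to 7.79 against 5.75 to 6.16, and of 8 erythroid markers (of 10 listed) 7.72 to 8.19 against 5.88 to 6.01. The same held for 9 B and plasma cell markers (7.82 to 8.24 against 6.08 to 6.55). So it was for 7 mast cell and basophil markers (6.96 to 7.78 against 6.11 to 6.16), while 9 neutrophil markers overlapped (6.14 to 7.76 against 6.18 to 7.78). The mean of 10 stromal markers was higher too (5.98 to 7.68 against 5.65 to 5.92). So was that of 12 T and NK cell markers (6.11 to 7.20 against 5.95 to 6.06). In each of these 2 means the parting of the groups leaned on 1 gene, the only one of its list at an unadjusted limma p under 0.05. These were Cxcl12 (8.3 to 12.5 against 5.3 to 5.5) and Gzma (7.1 to 8.1 against 4.0 to 4.9). The highest array of each mean did not rest on that gene alone. Col1a1 and Col1a2 were at 8.96 and 10.42 in GFP-positive replicate 1, and Gzmb and Klrd1 at 9.05 and 8.48 in GFP-positive replicate 2. Positive differences were found in 6 of the 10 stromal and 8 of the 12 T and NK cell markers. They were found in 8 of the 9 megakaryocyte and platelet, 11 of the 13 macrophage and 7 of the 8 erythroid markers. For B and plasma cells the count was 7 of 9, and for mast cells and basophils 6 of 7. The exception of the last list, Ms4a2, was lower in GFP-positive arrays without overlap, at -1.37 ± 0.44. The part of these cell types and of the markers of the sorted cells in the differences below was not tested. GFP-positive replicate 1 stood apart by its endothelial genes, as described below, and by its stromal genes. The stromal mean was 7.68 in that array and 5.65 to 6.15 in the others, and 7 of the 10 stromal markers were highest in it.

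No adhesion gene passed the test. By limma, with p-values adjusted by Benjamini-Hochberg over all 18194 genes, 0 of the 35 measured genes passed an adjusted p of 0.05 in either direction, against 0% of all genes, and the smallest adjusted p among them was 0.667. At an unadjusted p under 0.05 by limma there was 1 of the 35, Itgav, or 2.86%, where the share over all genes was 6.71%. It was lower in GFP-positive cells, as 3.38% of all genes were by this rule, and 0 of the 35 were higher, as 3.33% of all genes were. The 3 arrays of one group lay wholly above or below those of the other in 5 of the 35, or 14.3%, against 11.4% of all genes. Those 5 were Itga2 and Jam2, higher in GFP-positive cells (5.89% of all genes were so), and Itgav, Cd44 and Cd47, lower (5.51%). These shares are near the background of all genes. The median difference, GFP-positive minus GFP-negative, was 0.003 (log2) over the 35 genes and 0.008 over all genes, with 18 positive and 17 negative differences. By role the medians were -0.16 over 15 alpha chains, 0.02 over 9 beta chains and 0.02 over the 11 others.

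**Figure D1:**
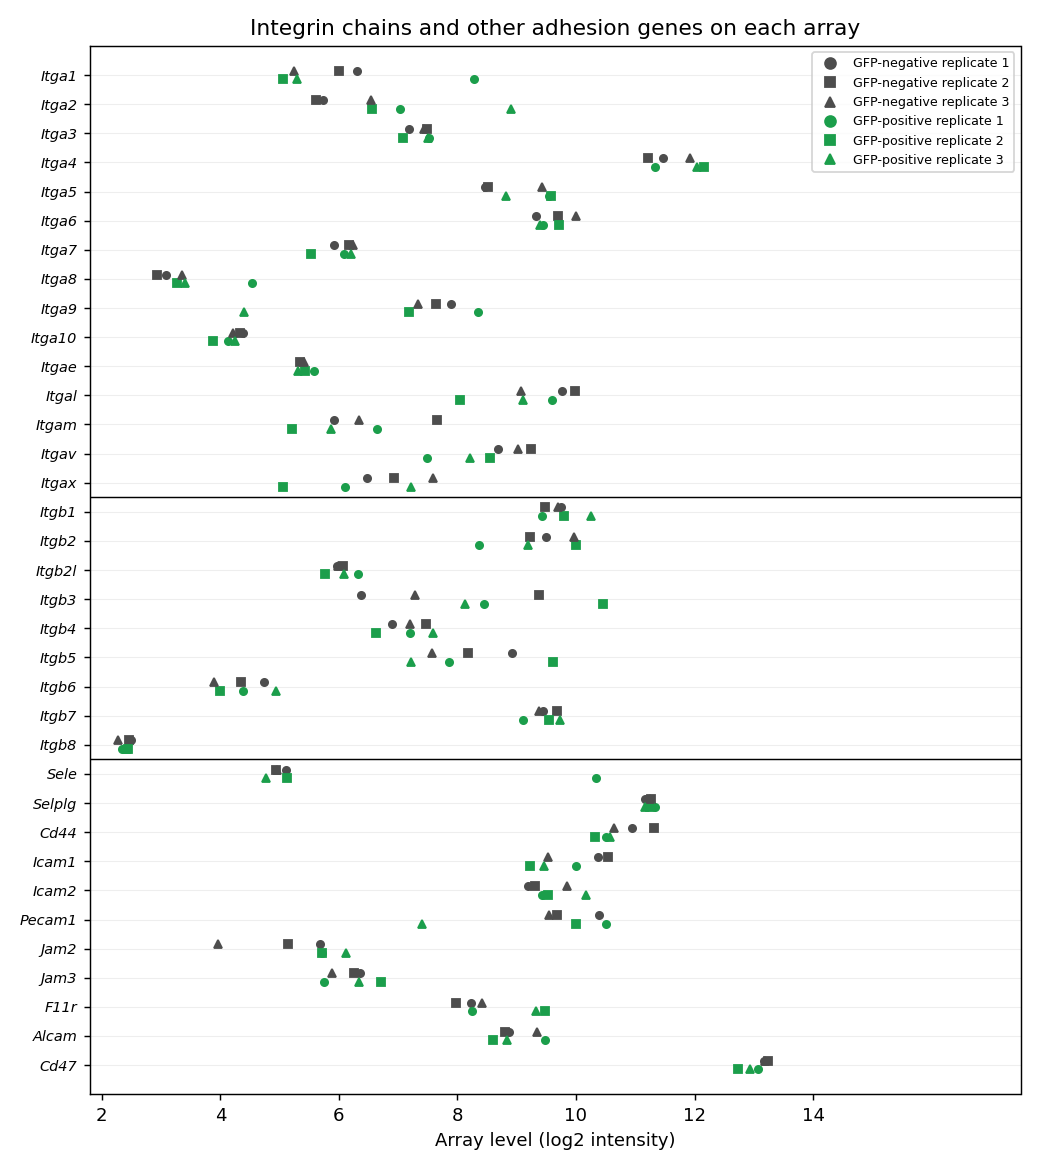
Array level (log2 intensity) of each of the 35 measured genes, 1 point per array, with GFP-negative arrays in grey and GFP-positive arrays in green and the marker shape giving the replicate number; lines divide alpha chains, beta chains and the other genes. Most rows overlap between groups, and single arrays stand apart for Sele and Itga1 (GFP-positive replicate 1, at 10.34 and 8.28) and for Itga9 and Pecam1 (GFP-positive replicate 3, at 4.40 and 7.41).

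The data bounded some genes closely and others hardly at all. The 95% interval of the difference lay within -1 to 1, that is, under a 2-fold change in either direction, for 16 of the 35 genes, and within -0.5 to 0.5 for 4. Those 4 were Selplg (-0.32 to 0.36), Itga3 (-0.46 to 0.46), Itgae (-0.29 to 0.43) and Itgb8 (-0.35 to 0.35). The intervals of the other 19 reached past a 2-fold change in at least 1 direction, and the standard error ran from 0.14 for Selplg to 1.48 for Sele. Itgb8, Itga8 and Itga10 lay on every array below 4.69, the highest level of 3 Y-linked genes on the female arrays, which serves as a rough guide to background. Itgae and Itgb6 lay on every array below 5.59, the highest level of Xist on the male arrays, a second such guide. The intervals of these 5 genes, narrow or wide, therefore describe dim probe sets.

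**Figure D2:**
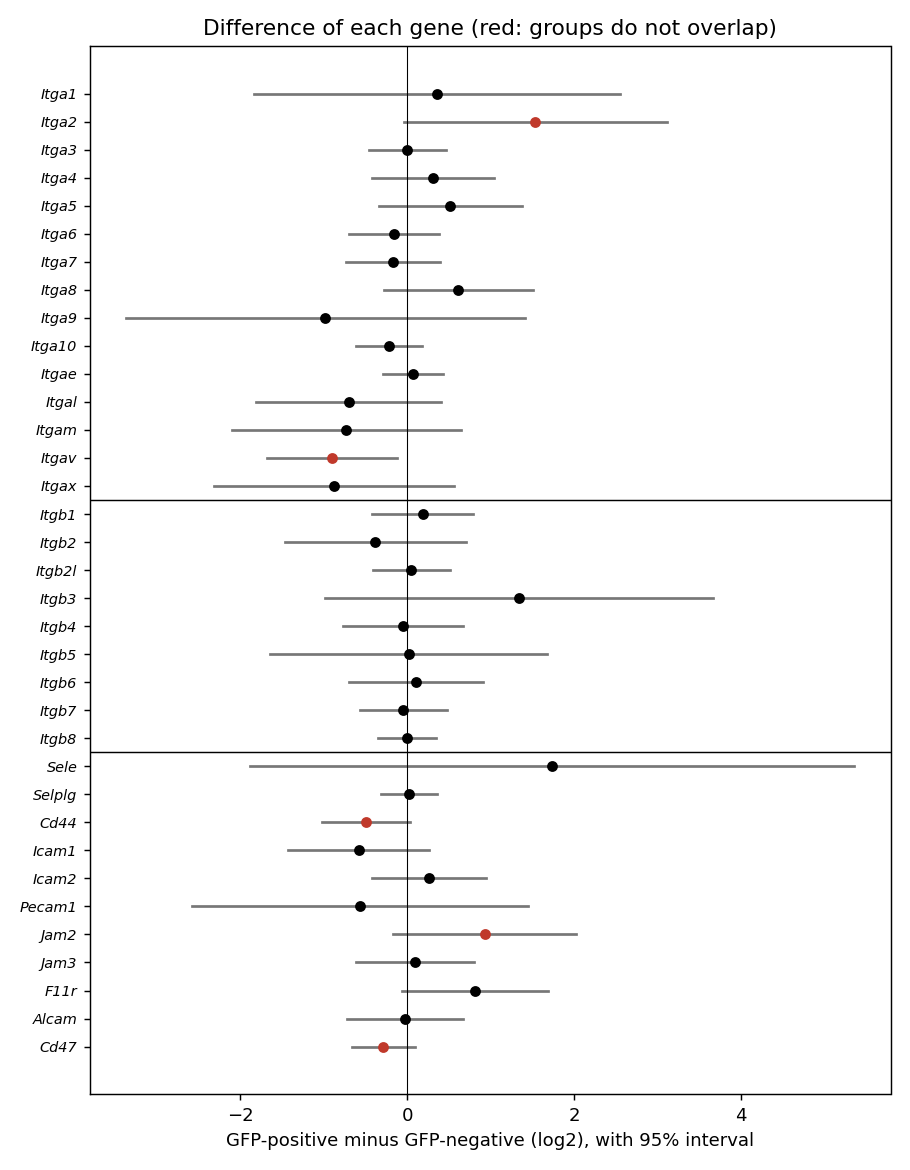
Difference of each gene (GFP-positive minus GFP-negative, log2, horizontal axis) with its 95% interval from limma, 3 arrays per group; red points mark the 5 genes whose groups do not overlap. The interval of Itgav (-1.67 to -0.12) is the one that leaves out 0, before adjustment over all genes.

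Promoters are shown for 3 genes, those of the genes whose groups did not overlap and that the RefSeq-based table (GRCm38.p6) holds with 1 start site; it held 24 of the 36 genes. Each is the 250 bases before the start site, 5′ to 3′ on the gene's own strand, and capitals mark matches on either strand to CACNAG (the N-box) or CACGNG (the class C site), the letter patterns that Hes repressors are known to bind. Itga2 lies at chr13:114932101-114932350 (minus strand), Itgav at chr2:83724147-83724396 (plus strand) and Cd44 at chr2:102901666-102901915 (minus strand).
Itga2: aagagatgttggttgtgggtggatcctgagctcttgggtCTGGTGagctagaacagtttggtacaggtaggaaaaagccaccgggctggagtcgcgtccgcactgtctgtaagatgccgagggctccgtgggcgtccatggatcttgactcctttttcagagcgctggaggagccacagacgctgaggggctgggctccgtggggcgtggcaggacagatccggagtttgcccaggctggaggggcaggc
Itgav: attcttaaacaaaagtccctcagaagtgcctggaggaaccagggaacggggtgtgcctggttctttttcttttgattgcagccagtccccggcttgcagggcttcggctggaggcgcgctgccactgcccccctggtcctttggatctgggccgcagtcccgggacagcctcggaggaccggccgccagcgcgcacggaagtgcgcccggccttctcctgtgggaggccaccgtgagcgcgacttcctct
Cd44: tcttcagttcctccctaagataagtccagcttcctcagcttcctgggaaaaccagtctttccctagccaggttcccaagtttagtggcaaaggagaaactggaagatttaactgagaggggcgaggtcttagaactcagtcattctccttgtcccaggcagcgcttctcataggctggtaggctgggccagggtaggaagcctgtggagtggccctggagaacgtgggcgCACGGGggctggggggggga
The Itga2 window held 1 N-box and the Cd44 window 1 class C site, while these letters did not occur in the Itgav window. The N-box pattern occurred in 5 of the 24 adhesion genes, or 20.8%, and in 36.7% of all 32851 promoters of the table. The class C pattern occurred in 3 of the 24, or 12.5%, against 23.5%. TGGGAA, the core bound by the Notch factor Rbpj, occurred in 2 of the 24, or 8.3%, against 21.6% of all promoters, and the Cd44 window held it in 2 places. These are matches of letters and not binding sites.

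Among the beta1 partners, Itga2, the collagen-binding chain of platelets and NK cells, had the largest positive difference of the alpha chains. In GFP-negative replicates 1, 2 and 3 it was at 5.72, 5.61 and 6.54, and in the GFP-positive ones at 7.03, 6.56 and 8.90. The groups were parted by the narrow step from 6.54 to 6.56, and GFP-positive replicate 3 was the highest array. The difference was 1.54 ± 0.64 (SE, n = 3 per group), a fold of 2.9, with limma adjusted p = 0.755 and a two-sided exact permutation p of 0.1, the lowest possible with 3 against 3. Within replicate numbers 1, 2 and 3 it was 1.30, 0.94 and 2.36. Without GFP-positive replicate 3 it was 0.83 (limma adjusted p = 0.791). The megakaryocyte and platelet markers given above were also higher in these arrays. NK cell genes were mixed: Gzma, Gzmb and Ncr1 were at 3.17, 2.26 and 1.28, but Klrd1 was at 0.05 and Nkg7 at -0.11. The part of these cell types in the Itga2 values was not tested.

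Itgb1, the common beta1 chain that Itga2 needs, did not differ beyond its spread. It was at 9.74, 9.47 and 9.70 in GFP-negative and 9.42, 9.79 and 10.25 in GFP-positive replicates, overlapping groups with a difference of 0.19 ± 0.25 and an interval of -0.42 to 0.79. Its 6 probe sets ran from -0.03 to 2.12. The one at 2.12 ± 0.57 was a dimmer probe set, at 4.84, 5.46 and 6.03 in GFP-negative and 8.13, 8.15 and 6.42 in GFP-positive replicates. Its groups did not overlap, but over 45101 probe sets its limma adjusted p was 0.618, and the brighter pair of probe sets stood at 0.19 and 0.21. With the mean of all 6 in place of the brightest, the Itgb1 difference was 0.63 (limma adjusted p = 0.667).

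The chains that anchor progenitors in marrow showed small differences. Itga4, the alpha4 chain of the Vcam1 and fibronectin receptor, was at 11.47, 11.21 and 11.92 in GFP-negative and 11.33, 12.15 and 12.05 in GFP-positive replicates. Its groups overlapped, with a difference of 0.31 ± 0.30, and all 5 of its probe sets were positive, from 0.16 to 0.50. Itga5, the fibronectin receptor chain, was at 8.46, 8.52 and 9.42 against 9.55, 9.58 and 8.82, a difference of 0.52 ± 0.35. It was higher in GFP-positive cells within numbers 1 and 2 and lower within number 3. Itga6, a laminin receptor chain used to mark stem cells, was at -0.16 ± 0.22, and Itga3, another laminin receptor chain, at 0.00 ± 0.19. By limma these 4 genes had adjusted p-values between 0.930 and 1.000.

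The remaining beta1 partners, except Itga7, were dim or set by 1 array. Itga1, a collagen receptor chain, was at 6.30, 6.01 and 5.25 in GFP-negative and 8.28, 5.05 and 5.29 in GFP-positive replicates, so GFP-positive replicate 1 alone stood high. Its difference was 0.36 ± 0.90, and without that array it turned to -0.68. Itga9, a receptor chain for tenascin and osteopontin, was at 7.89, 7.63 and 7.33 against 8.35, 7.18 and 4.40, and there GFP-positive replicate 3 alone stood low. The difference was -0.98 ± 0.97, turned to 0.14 without that array, and all 3 probe sets of the gene were lowest there. Itga7, a laminin receptor of muscle, was at -0.17 ± 0.23. Itga8 and Itga10, chains of mesenchymal and cartilage integrins, were at 0.61 ± 0.36 and -0.22 ± 0.16 on dim probe sets, and Itga8 was highest in GFP-positive replicate 1, at 4.53.

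Itgav, the alphav chain, had the smallest p of the 35 genes. GFP-negative replicates 1, 2 and 3 had it at 8.68, 9.24 and 9.02, and GFP-positive ones at 7.48, 8.56 and 8.21. All GFP-positive arrays lay below the GFP-negative ones, with the female pair farthest apart: the differences within numbers 1, 2 and 3 were -1.20, -0.68 and -0.81. The difference was -0.90 ± 0.32 (SE, n = 3 per group), or 1.86-fold lower, with an unadjusted limma p of 0.0307 and an adjusted p of 0.667, and an exact permutation p of 0.1. The gene's other probe sets did not follow: of 5, 3 were negative and 2 positive. The third brightest was at 7.22, 6.39 and 6.80 in GFP-negative and 7.22, 7.58 and 8.60 in GFP-positive replicates, a difference of 1.00 ± 0.42 in the opposite direction. The mean over the 5 probe sets gave -0.01. The direction of Itgav thus depended on the probe set.

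Of the beta chains that pair with alphav, 0 reached an unadjusted limma p under 0.05. Itgb3, the beta3 chain of platelets, macrophages and stem cells, was at 6.37, 9.38 and 7.28 in GFP-negative and 8.44, 10.46 and 8.13 in GFP-positive replicates. Replicate 2 was the highest array of both groups, and the groups overlapped widely, yet within numbers 1, 2 and 3 GFP-positive exceeded GFP-negative by 2.07, 1.08 and 0.86. The difference was 1.34 ± 0.95 (limma adjusted p = 0.941), and the dimmer of its probe sets was at 0.05. Single arrays moved it widely: it was 2.19 without GFP-negative replicate 2, 0.68 without GFP-negative replicate 1 and 0.61 without GFP-positive replicate 2. Itgb5, a vitronectin receptor chain, was at 8.91, 8.17 and 7.56 against 7.86, 9.62 and 7.22. It was at 0.02 ± 0.68, high in GFP-positive replicate 2, and the other 3 of its 4 probe sets were negative, down to -0.57. Itgb6 (4.74, 4.35 and 3.89 against 4.38, 3.99 and 4.94) and Itgb8 (2.49, 2.46 and 2.27 against 2.34, 2.44 and 2.43), which with alphav activate latent TGF-beta, were dim in both groups, with differences of 0.11 ± 0.33 and -0.00 ± 0.14. Itga2b, the platelet partner of Itgb3 and outside the 36 genes, was at 9.03, 8.94 and 9.45 against 9.47, 10.38 and 9.62. Its difference was 0.68 ± 0.29 with no overlap (limma adjusted p = 0.77).

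All 4 measured genes of the leukocyte beta2 integrins had negative differences, none of which passed. Itgal, the alpha chain of LFA-1, was at 9.77, 9.98 and 9.08 in GFP-negative and 9.59, 8.04 and 9.10 in GFP-positive replicates, overlapping, with a difference of -0.70 ± 0.45. Itgam, the alpha chain of Mac-1 on myeloid cells, was at 5.92, 7.65 and 6.33 against 6.65, 5.21 and 5.86, a difference of -0.73 ± 0.56. Itgax, the CD11c chain of dendritic cells, was at 6.48, 6.93 and 7.59 against 6.10, 5.06 and 7.22, a difference of -0.87 ± 0.59. GFP-positive replicate 2 was the lowest array for all 3 alpha chains. Without it their differences were -0.27, -0.38 and -0.34. Itgb2, the common beta2 chain, followed another order: it was at 9.49, 9.23 and 9.97 against 8.36, 9.99 and 9.18, lowest in GFP-positive replicate 1 and highest in GFP-positive replicate 2. Its difference was -0.38 ± 0.44, turned to 0.03 without GFP-positive replicate 1 and was -0.01 in the male arrays alone. By limma these 4 genes had adjusted p-values between 0.920 and 0.966.

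The other beta chains lay close to 0. Itgb2l, a relative of Itgb2 expressed in neutrophils, was at 0.05 ± 0.19. Itgb4, the epithelial partner of Itga6, was at -0.05 ± 0.29. Itgb7, which joins Itga4 or Itgae on lymphocytes, was at 9.45, 9.68 and 9.38 in GFP-negative and 9.10, 9.54 and 9.73 in GFP-positive replicates, with a difference of -0.05 ± 0.21 and an interval of -0.57 to 0.47. Itgae, which pairs with Itgb7 and binds E-cadherin, lay between 5.30 and 5.58 on all arrays.

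Read as pairs, 11 integrins had both chains on the same side of 0 and 10 had them on opposite sides. Of 22 pairs 21 had both chains measured, and 11 of these had both chains above the 5.59 guide on every array. Both chains were higher in GFP-positive cells in 6 pairs and both lower in 5. The 6 were beta1 pairs and share Itgb1 at 0.19. They include alpha3 beta1, with Itga3 at 0.003, and alpha8 beta1, with Itga8 on a dim probe set. The 5 were the 3 beta2 pairs, alpha6 beta4 and alphav beta8, the last with Itgb8 at -0.002 on a dim probe set. In alphav beta3 the chains stood at -0.90 for Itgav and 1.34 for Itgb3, and in alpha2 beta1 at 1.54 and 0.19. The gap in alphav beta3 depended on the probe set: with the mean of probe sets these chains were at -0.01 and 0.70, those of alpha2 beta1 at 1.54 and 0.63, and those of alpha9 beta1 at -0.72 and 0.63. Since many pairs share a chain, these counts are not independent.

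**Figure D3:**
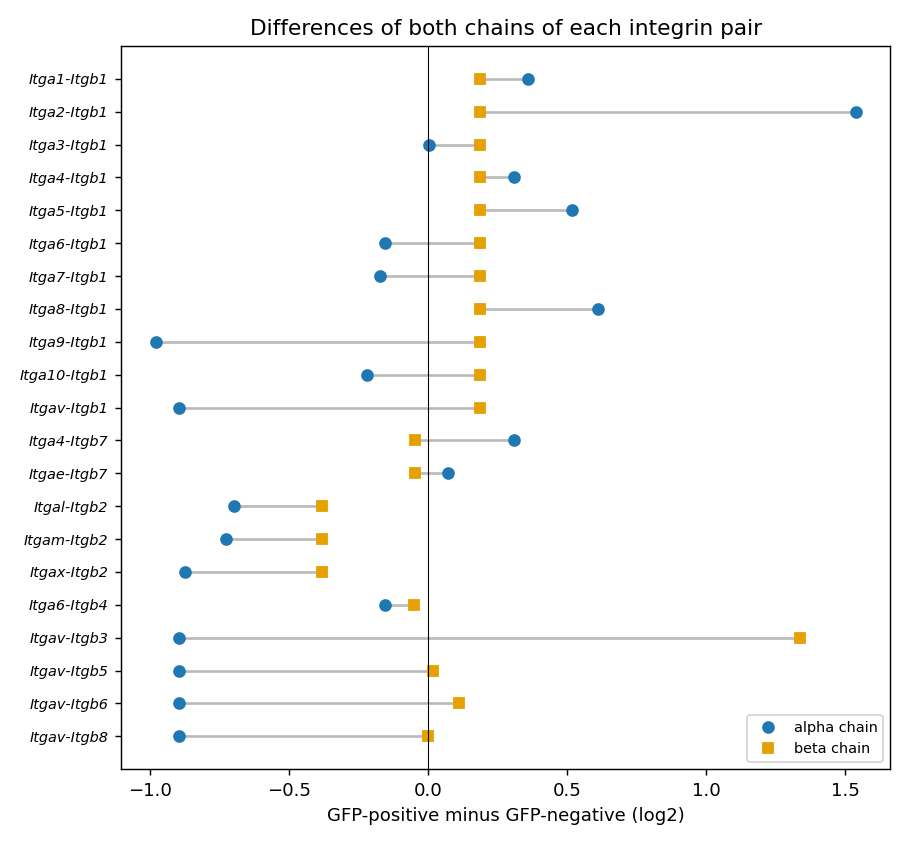
Difference (GFP-positive minus GFP-negative, log2) of the alpha chain (circle) and the beta chain (square) of 21 integrin pairs, joined by a line. Long lines mark alphav beta3 (-0.90 and 1.34) and alpha2 beta1 (1.54 and 0.19), of which the first shrinks to -0.01 and 0.70 with the mean of probe sets, and the 3 beta2 pairs lie left of 0 with both chains.

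Sele, E-selectin of activated and marrow endothelium, differed in 1 array alone. It was at 5.11, 4.95 and 4.96 in GFP-negative and 10.34, 5.12 and 4.76 in GFP-positive replicates, so that GFP-positive replicate 1 stood 5.23 above the GFP-negative array of its number while the 5 other arrays lay within 4.76 to 5.12. The difference over all arrays was 1.74 ± 1.48 (limma adjusted p = 0.961), and -0.06 ± 0.18 without that array. All 14 endothelial markers of the list were measured. Their mean log2 level was 9.45 in GFP-positive replicate 1 and between 6.69 and 6.82 in the other 5 arrays, and 12 of the 14 were highest in it. Their summed intensity was 3190 to 5171 in GFP-negative and 3432 to 14760 in GFP-positive arrays. Cdh5, the endothelial cadherin, was at 9.83 in that array and between 4.29 and 5.01 in the others. The stromal markers were also high in that array, as given above. The part of endothelial or stromal RNA in its Sele, Itga1 and Itga8 values was not tested.

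Adhesion genes shared by endothelium and blood cells varied in that array. Esam, outside the 36 genes, was highest there (6.80, 7.21 and 7.99 in GFP-negative and 9.35, 8.71 and 7.86 in GFP-positive replicates). Pecam1, which joins endothelial cells and is also found on progenitors and platelets, was at 10.38, 9.68 and 9.55 in GFP-negative and 10.50, 10.00 and 7.41 in GFP-positive replicates. There GFP-positive replicate 3 stood low, and the difference of -0.56 ± 0.82 turned to 0.39 without it. Icam2, a ligand of LFA-1 on endothelium and leukocytes, was at 9.20, 9.31 and 9.84 against 9.43, 9.53 and 10.16. Its difference was 0.26 ± 0.28, and it was higher in the GFP-positive array within each replicate number, by 0.23, 0.22 and 0.32.

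**Figure D4:**
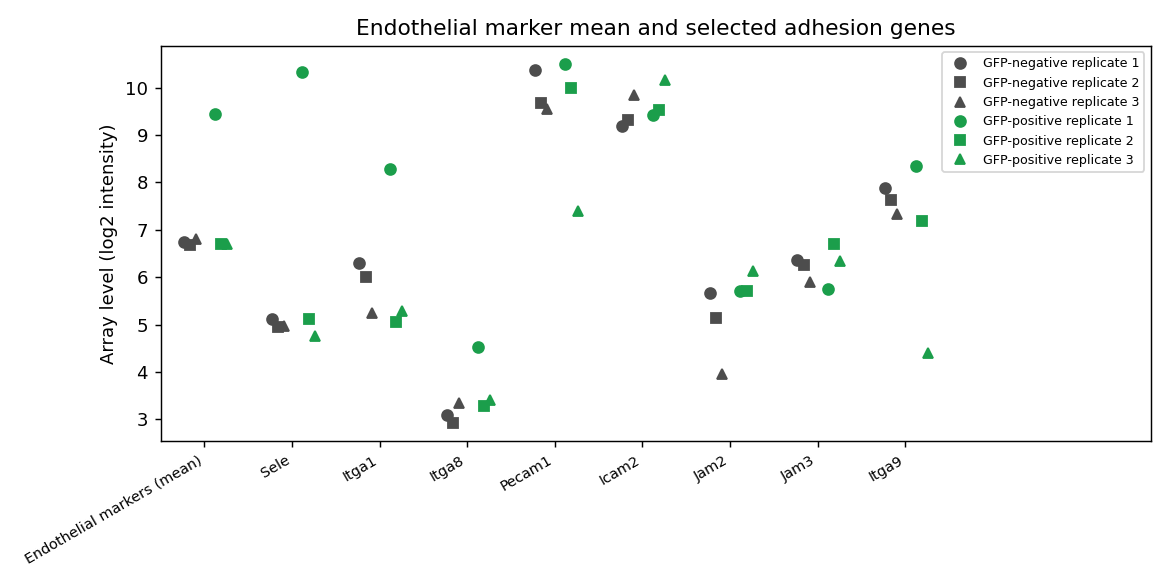
Mean log2 level of 14 endothelial markers and log2 levels of 8 adhesion genes on each array, GFP-negative in grey and GFP-positive in green, with the marker shape giving the replicate number. GFP-positive replicate 1 stands high for the marker mean (9.45), Sele (10.34) and Itga1 (8.28), while Pecam1 and Itga9 stand low in GFP-positive replicate 3 (7.41 and 4.40).

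Selplg, the selectin ligand by which progenitors roll on vessel walls, had the smallest standard error of the 35 genes. It was at 11.17, 11.27 and 11.24 in GFP-negative and 11.34, 11.24 and 11.16 in GFP-positive replicates. The difference of 0.02 ± 0.14 had an interval of -0.32 to 0.36. Of 12 enzymes that build the sugars and sulfates of selectin ligands, 0 passed over all genes by limma, and at an unadjusted p under 0.05 there were 2 higher and 0 lower, 16.7% against 6.71% of all genes. These were St3gal6, a sialyltransferase, at 1.12 ± 0.36 (limma adjusted p = 0.618), and C1galt1, which starts core 1 O-glycans, at 0.78 ± 0.29 (limma adjusted p = 0.707).

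Cd44, the hyaluronan receptor that also serves as a selectin ligand, was at 10.95, 11.31 and 10.63 in GFP-negative and 10.51, 10.32 and 10.58 in GFP-positive replicates. The groups were parted by 10.58 and 10.63, and the difference was -0.49 ± 0.22, or 1.41-fold lower (limma adjusted p = 0.772; exact permutation p = 0.1). Its 3 bright probe sets were negative, at -0.49, -0.45 and -0.21, and the dim one was at 0.36. Cd47, which associates with integrins and shields cells from macrophages through Sirpa, was at 13.18, 13.23 and 13.20 against 13.08, 12.74 and 12.94. All GFP-positive arrays lay below the GFP-negative ones, by a difference of -0.28 ± 0.15, or 1.22-fold (limma adjusted p = 0.864; exact permutation p = 0.1). Of its 5 probe sets 4 were negative, from -0.30 to -0.18, and 1 was at 0.08. Both kept their sign in all 17 alternatives that gave a test, but their size varied: within numbers 1, 2 and 3 Cd44 differed by -0.44, -0.99 and -0.05 and Cd47 by -0.10, -0.49 and -0.26. Without GFP-negative replicate 2 Cd44 was at -0.32, and with the mean of probe sets at -0.20. The mean of the measured markers of the sorted cells was lower in the same arrays, as given above.

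The junctional adhesion molecules, which seal endothelial contacts and bind leukocyte integrins, differed among themselves. Jam2, used as a marker of stem cells, was at 5.67, 5.13 and 3.96 in GFP-negative and 5.72, 5.71 and 6.13 in GFP-positive replicates. The groups were parted by 5.67 and 5.71, and GFP-negative replicate 3 alone stood low. The difference was 0.93 ± 0.45 (limma adjusted p = 0.817; exact permutation p = 0.1) and 0.45 without that array. All 5 probe sets were positive, from 0.18 to 0.93, but they were dim. The brightest lay below the 5.59 guide to background on 2 arrays, and the mean levels of the others ran from 3.45 to 5.33. F11r, or JAM-A, the partner of LFA-1, was at 8.23, 7.97 and 8.42 against 8.25, 9.48 and 9.32. GFP-positive replicate 1 lay among the GFP-negative arrays and replicates 2 and 3 above them. The difference was 0.81 ± 0.36 (limma adjusted p = 0.78), and without GFP-positive replicate 1 it was 1.19 ± 0.20 (limma adjusted p = 0.329, the smallest adjusted p of any adhesion gene in any alternative). Jam3 was at 0.09 ± 0.29.

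Icam1, the inducible ligand of LFA-1 and Mac-1, was at 10.38, 10.54 and 9.52 in GFP-negative and 10.01, 9.23 and 9.46 in GFP-positive replicates. The groups overlapped, the difference was -0.58 ± 0.34, and within numbers 1, 2 and 3 it was -0.37, -1.31 and -0.07. Alcam, an immunoglobulin superfamily receptor for Cd6, was at 8.86, 8.80 and 9.34 against 9.47, 8.61 and 8.84, a difference of -0.03 ± 0.28 on its brightest probe set. Another of its 5 probe sets was at 9.20, 9.72 and 9.17 in GFP-negative and 8.40, 8.20 and 7.20 in GFP-positive replicates, with no overlap. That probe set had a difference of -1.43 ± 0.36, with a limma adjusted p of 0.603 over 45101 probe sets. The mean of all 5 gave -0.41.

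Among the 84 probe sets of the 35 genes, 0 passed over all probe sets by limma and 3 had an unadjusted p under 0.05, those of Itgav, Itgb1 and Alcam described above, where 6.14% of all 45101 probe sets did. Of the 21 genes with several probe sets, 8 had all of them on the same side of 0: Itga1, Itga4, Itga8, Itgb3, Jam2 and F11r above, and Itga9 and Itgal below.

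**Figure D5:**
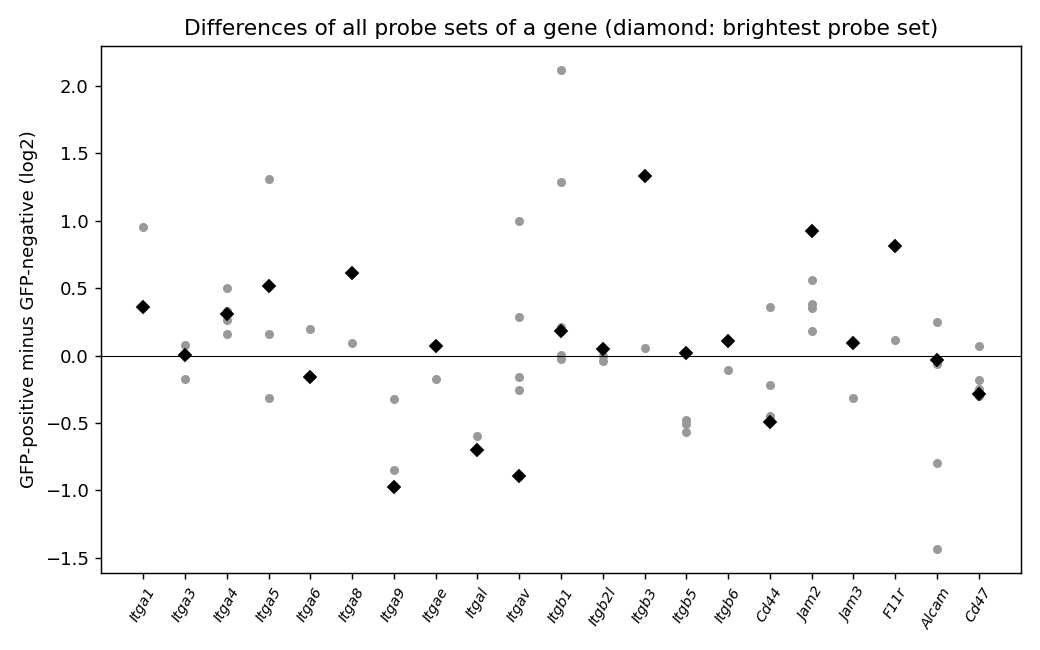
Difference (GFP-positive minus GFP-negative, log2) of each probe set of the 21 genes that have several; the diamond is the brightest probe set, which stands for the gene. The probe sets of Itgb1 (-0.03 to 2.12), Itgav (-0.90 to 1.00) and Alcam (-1.43 to 0.25) spread widely, and those of Itga4 (0.16 to 0.50) lie close together.

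Genes that work with these receptors did not pass the test either. Of 29 measured genes of integrin activation and adhesion sites (31 listed), among them Tln1, Fermt3 and Ilk, 0 passed over all genes by limma and 0 reached an unadjusted p under 0.05. Their median difference was 0.08, and 4 had groups without overlap, 13.8% against 11.4% of all genes. Of these 4, 1 was higher, Rsu1 at 0.24 ± 0.15, and 3 were lower. The lower ones were Zyx, a protein of actin-linked adhesions, at -0.35 ± 0.15, Sharpin, which holds integrins inactive, at -0.56 ± 0.24, and Skap2 at -0.26 ± 0.15. Of 23 measured integrin ligands (27 listed) 0 passed, and at an unadjusted p under 0.05 there were 1 higher and 0 lower, 4.35% against 6.71% of all genes, with a median of 0.27. Of the 23 ligands 17 had a positive difference, and 5 had groups without overlap, 21.7% against 11.4% of all genes. All 5 were higher, as 5.89% of all genes were. These 5 were Vcam1, Fn1 (0.61 ± 0.28), Madcam1 (0.55 ± 0.36), Icam5 (0.23 ± 0.15) and Cdh1 (1.02 ± 0.60). Fn1 and Madcam1 were highest in GFP-positive replicate 1, at 6.81 and 6.42, and Cdh1 in GFP-positive replicate 2, at 6.13. In the other GFP-positive replicates Madcam1 was at 5.16 and 5.25, and Cdh1 at 4.09 and 3.92. Madcam1, Icam5 and Cdh1 lay below the 5.59 guide to background in every GFP-negative array. The ligand under 0.05 was Vcam1, the counter-receptor of alpha4 beta1, at 6.46, 6.66 and 6.83 in GFP-negative and 9.50, 9.24 and 7.38 in GFP-positive replicates. Its difference was 2.06 ± 0.57 (limma adjusted p = 0.529), and replicates 1 and 2 stood above replicate 3. Vcam1 is also an endothelial gene and is itself one of the 13 macrophage markers given above. The mean of the macrophage list was higher in every GFP-positive array, and that of the endothelial list in GFP-positive replicate 1 alone. The part of either cell type in Vcam1 was not tested.

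Of 25 other measured adhesion receptors (30 listed) 0 passed over all genes by limma, and at an unadjusted p under 0.05 there were 2 higher and 2 lower, 16% against 6.71% of all genes, with a median of 0.08. The higher ones were Esam, of endothelium, platelets and stem cells, at 1.30 ± 0.47, and the tetraspanin Cd9 at 0.82 ± 0.27. The lower ones were Cd48, a receptor found on progenitors and absent from stem cells, at -0.77 ± 0.24, and Cd34, at -0.63 ± 0.17. Cd34, a sialomucin of progenitors and endothelium, is itself among the markers of the sorted cells given above. By limma these 4 had adjusted p-values between 0.528 and 0.680.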

How the data were processed

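Gene expression was measured on 6 Affymetrix arrays, 3 per group. Per the labels' protocols, 5 ng of total RNA per sample were amplified and biotin-labelled. The authors deposited 1 linear-scale intensity per probe set and array (45101 probe sets). Per the submitters' processing notes RMA was used; version and settings: not given in the sources used here. Summarising by RMA understates differences of dim probe sets, and its quantile step removes shifts common to most genes. Genes were named from the platform annotation (34958 probe sets with 1 symbol, 932 with several and 9211 not listed; the last 2 kinds were left out), and log2 was taken without an offset. Groups were compared with limma 3.58.1 (lmFit, eBayes; R 4.3.3), p-values adjusted by Benjamini-Hochberg over 18194 genes, without a filter; single genes also by a two-sided exact permutation test. Every measured gene is given a difference; full values were given for genes with an unadjusted p under 0.05, non-overlapping groups, their partner chains, or an array over 2 log2 units from the median, and for others chosen after their values were seen. The genes, lists and alternatives were chosen with earlier results of these data known. The fit was tested on simulated data. The number of arrays limits the precision. Figures used matplotlib 3.10.9 in Python 3.11.15.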

Additional observations from a re-analysis of the deposited data

How the results depend on the processing

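In all alternatives 0 adhesion genes passed an adjusted p of 0.05, and the median difference ran from -0.06 to 0.12. Of the 35 genes 16 kept their sign in all alternatives with a test that held them. Small counts moved. At an unadjusted p under 0.05 (main values 0 higher and 1 lower), 2 were higher with the mean of probe sets, array weights or the male arrays alone, 1 with a filter at the 40th percentile, sex as a covariate or the trend and robust prior, and 2 were lower with that prior or with median centring. With any probe set counted, an alternative chosen after seeing the data, 1 was higher and 2 lower. Groups without overlap (main values 2 higher and 3 lower) numbered 1 higher with the filter at the 40th percentile, and 0 with that at the 60th, with renewed quantile normalisation or with median centring. In the male arrays alone they numbered 6 higher and 7 lower, where 36.7% of all genes had none. The filters kept 23 and 18 of the 35 genes.

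Leaving out 1 array in turn gave 0 to 1 higher and 0 to 2 lower at an unadjusted p under 0.05, and 2 to 6 higher and 3 to 7 lower without overlap, the last with 18.7% to 23.6% of all genes without overlap. In 4 of the 6 such fits Itgav lost its unadjusted p under 0.05: it was 0.0556 without GFP-positive replicate 1, 0.0545 without GFP-positive replicate 3, 0.0919 without GFP-negative replicate 2 and 0.075 without GFP-negative replicate 3.

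Same-numbered arrays deviated together only weakly (r = 0.12, 0.05 and 0.09 for numbers 1, 2 and 3 across genes), so the numbers were not taken to pair the samples, although each array correlated best with its own number. With the replicate number as a block, 2 genes were higher (Itga2 and Itgb3) and 1 lower (Itgav) at an unadjusted p under 0.05, and 0 passed over all genes.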
